A study of Bos taurus with 6 samples.

Results

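The 52 genes described here act in DNA replication and mitosis, and their probes were found by the platform's gene symbol or its current synonym. They fell into 32 genes of the G1/S transition and of DNA synthesis, and 20 genes of G2 and mitosis. The array's annotation held 51 of them, with 95 probes among 43794 gene probes, and GINS2 was not among the symbols matched. Expression was measured in cumulus cells, the granulosa-derived cells around the oocyte, from Holstein dairy cows. All cows (6, per the labels) had follicle-stimulating hormone (FSH) for 3 days, and the cells were recovered 68 h after its last injection. In the cetrorelix group, daily doses of 12 mg cetrorelix began on the second day of FSH and went on for 5 days, up to recovery, and the control group had the same FSH schedule without it. Cetrorelix blocks the receptor of gonadotropin-releasing hormone and so lowers luteinizing hormone (LH). It is known as an antagonist, although the labels name it an agonist. The labels state neither age nor genotype nor the cows behind each replicate. The p-values of the main test thus measure the spread between 3 replicates that may hold cells of 1 or several cows.

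A cell that enters the cycle first activates cyclin D and cyclin E kinases in G1. Origins are licensed when the origin recognition complex, CDC6 and CDT1 load the MCM helicase ring, and DNA is then copied behind that helicase with the help of the sliding clamp PCNA. Cyclin A and cyclin B kinases drive entry into mitosis, where the spindle checkpoint holds the anaphase-promoting complex back until chromosomes are attached. Granulosa and cumulus cells of growing follicles proliferate under FSH, and the ovulatory LH surge is known to end their proliferation.

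Each of 6 arrays carried RNA of both groups. The 3 forward arrays had the cetrorelix RNA in Cy5 and the 3 swapped arrays had it in Cy3, with the control RNA in the other dye, and the 2 arrays with a shared replicate number were averaged. Values are log2 ratios of cetrorelix over control, given as the mean ± SD of 3 replicates, so that negative values are lower with cetrorelix. All forward arrays lay on 1 slide and all swapped arrays on another, so an effect of the dyes and one of the slides cannot be told apart. Across tested probes, the turned ratios of both arrays of a replicate correlated at r = 0.08, 0.26 and -0.13 for replicates 1, 2 and 3. The orientations thus repeated each other weakly in replicate 2, hardly in replicate 1 and not in replicate 3. The median raw spot intensity was 179 to 226 in Cy5 and 220 to 270 in Cy3. Between 40.8% and 70.9% of gene probes were above background in the cetrorelix channel, and between 54.8% and 69.6% in the control channel. The lowest shares in the cetrorelix channel, 40.8% to 54.0%, were those of the forward arrays.

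The cumulus label was compared with marker genes. All 15 granulosa and cumulus markers passed the filter on dim probes, and FSHR, CYP19A1, AMH and INHA were above background on 6 of 6 arrays in both groups. Their summed log2 level ranged from 17.66 to 17.85 with cetrorelix and from 17.64 to 17.81 in control replicates. Of the oocyte markers, 10 of 16 were tested, with summed levels of 11.43 to 11.65 and 11.44 to 11.60, and GDF9 was above background on 0 arrays. Summed levels were 13.71 to 13.99 with cetrorelix and 13.45 to 13.74 in control for theca and stroma (10 of 14 tested, LHCGR not above the filter). For leukocytes (6 of 11) they were 10.54 to 10.72 and 10.54 to 10.69, for endothelium (8 of 10) 10.88 to 10.94 and 10.82 to 10.98, and for erythrocytes (5 of 7) 10.54 to 11.07 and 10.41 to 10.64. The theca and stroma sums and the erythrocyte sums thus reached higher in the cetrorelix group, and their part in the members' values was not tested. Such sums weigh bright genes most, and the brightest were ACTA2 and GYPC, respectively. The median log2 ratios of the tested genes of these lists were 0.03 and 0.12.

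Of the 51 genes on the array, 50 were tested, and each was read from its brightest tested probe. CCND1, a G1 cyclin, was not tested because its probe was above background on 1 cetrorelix and 2 control arrays. Both groups expressed most members well: 52 of the 95 probes (54.7%), from 43 genes, were above background on all 6 arrays in both channels, against 27.1% of all gene probes. Only 2 probes, 1 of ORC4 and 1 of TPX2, were above background on no array in either group.

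No replication or mitosis gene passed the test at an adjusted p under 0.05 (limma, Benjamini-Hochberg over 32125 probes), and over all 12400 tested genes 1 gene (0.00806%) passed it. At an unadjusted p under 0.05, 7 of 50 members (14.0%) were lower with cetrorelix, against 8.55% of all tested genes, and 3 (6.00%) were higher, against 7.18%. The 7 lower genes were GMNN, MCM3, RFC3, RPA3, MAD2L1, BIRC5 and NUSAP1, and the 3 higher were MCM5, MCM7 and MAD2L2. Members were brighter than most genes, with a median log2 intensity of 10.72 in control and 10.31 with cetrorelix against 8.41 and 8.39 over all tested genes, and bright genes passed this p more often. Of the 43 members above background on all arrays, 7 (16.3%) were lower and 3 (6.98%) higher, where the shares among all 6033 such genes were 15.0% and 13.6%. The share of lower members thus lay near that of genes detected as widely, and the share of higher members lay below it. These p came from the fit over all tested probes. In a fit of only the probes above background on all arrays, 3 members were lower (GMNN, RPA3 and MAD2L1) and 3 higher. MCM3, RFC3, BIRC5 and NUSAP1 did not reach the unadjusted p in that fit, and the share of all genes in it was not counted. Counted over probes, 8 of 85 (9.41%) were lower and 5 (5.88%) higher, against 5.82% and 5.28% of all probes.

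Most members had ratios below 0. Their median log2 ratio was -0.19, where that of all tested genes was -0.01, and 35 of 50 lay below 0, against 6422 of 12400. On 6 of 6 arrays 9 members (18.0%) were lower, GMNN, MCM2, RFC3, RFC5, RPA3, CCNA2, MKI67, NUSAP1 and TOP2A, against 5.76% of all genes, and 0 were higher, against 4.01%. In 3 of 3 replicates 18 members (36.0%) were lower, against 18.4% of all genes, and 4 (8.0%) were higher, MCM5, MCM7, RFC2 and MAD2L2, against 15.5%. Among the 43 members above background on all arrays, 7 (16.3%) were lower and 0 higher on 6 of 6 arrays, against 8.70% and 6.68% of all such genes. In 3 of 3 replicates 16 of them (37.2%) were lower and 4 (9.30%) higher, against 22.4% and 19.5%. Replicate 1 had 41 members below 0, replicate 2 had 30 and replicate 3 had 27, so replicate 3 was close to an even division. Members share cells, arrays and in part their regulation, so these counts are not independent observations. In bulk cumulus RNA, fewer cycling cells and less of these RNAs per cell cannot be told apart. With the replicate number as a block, 12 members were lower and 2 higher. For the alternative settings in this paragraph, the shares of all tested genes were not counted, so these member counts stand without a comparison. Without replicate 1 there were 3 lower members and without replicate 3 there were 12, and without replicate 2 there was 1 higher member. GMNN and RPA3 remained among the lower members whichever replicate was left out, whereas MCM3, RFC3 and NUSAP1 did not reach the unadjusted p without replicate 1 or without replicate 2. The scaling mattered for the overall division: among all probes at an unadjusted p under 0.05, 47.5% were higher after loess and 33.6% after median centring without loess, and the count of lower members was then 17.

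**Figure D1:**
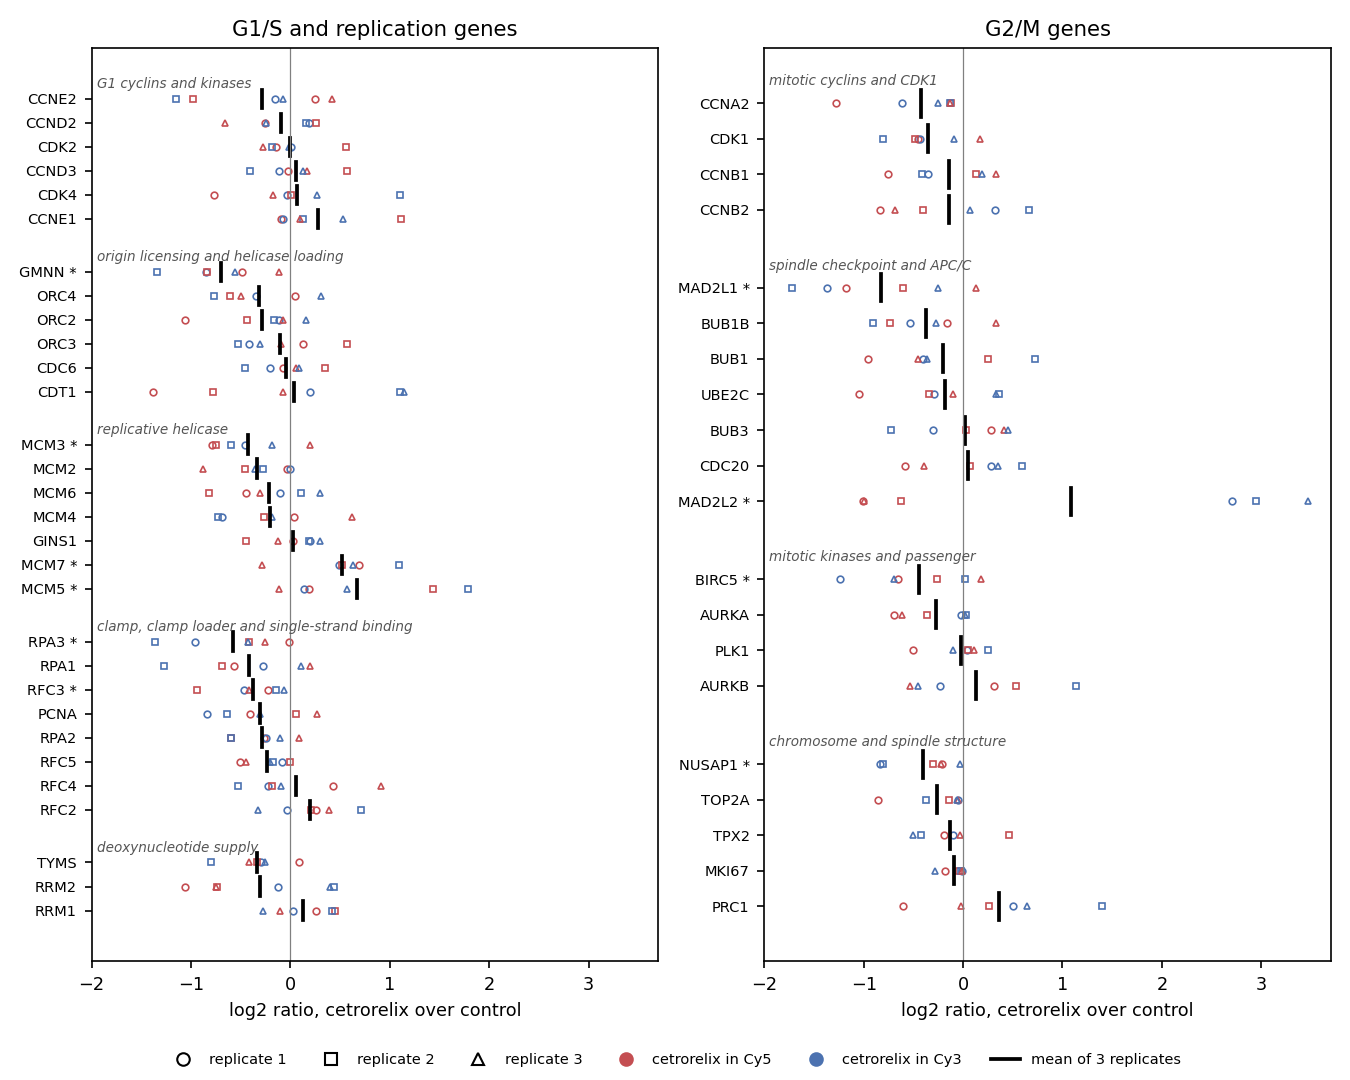
The log2 ratio (cetrorelix over control) of each of the 50 tested members on each of 6 arrays, as points whose shape gives the replicate and whose colour gives the dye of the cetrorelix RNA, grouped by role, with a black bar at the mean of 3 replicates and an asterisk at the 10 genes with an unadjusted p under 0.05. Of the 50 means 35 lie below 0, and MAD2L2 has opposite signs on the arrays of each orientation.

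The G1/S and replication genes and the G2/M genes gave similar medians. The 30 tested G1/S genes had a median of -0.21, with 20 below 0, 4 lower and 2 higher at the unadjusted p. Their medians in replicates 1, 2 and 3 were -0.15, -0.22 and 0.0019. The 20 G2/M genes had a median of -0.16, with 15 below 0, 3 lower and 1 higher, and replicate medians of -0.35, -0.08 and -0.06. The replicate medians of all tested genes were -0.03, -0.01 and 0.01. The order of the G1/S and the G2/M median thus differed between replicates, and replicate 3 lay nearest to 0 for both groups of genes. With a gene read as the mean of its probes the G1/S median was -0.10. Without replicate 1 the medians of the G1/S and the G2/M genes were -0.13 and -0.09.

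**Figure D2:**
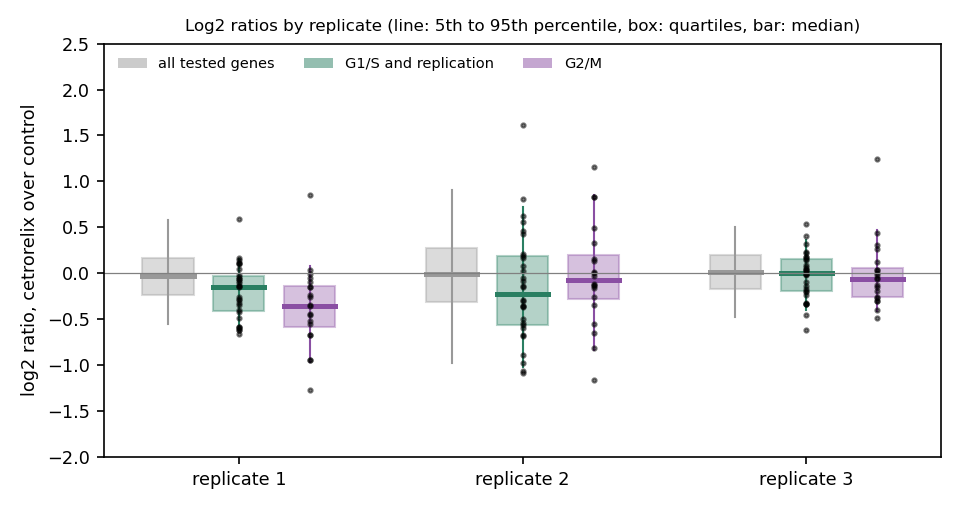
Distribution of log2 ratios (cetrorelix over control) in replicates 1, 2 and 3 for all tested genes, for the 30 G1/S and replication genes and for the 20 G2/M genes, with the 5th to 95th percentile as a line, quartiles as a box, the median as a bar and single members as points. The member medians lie below those of all genes in each replicate. In replicate 3 they are 0.0019 (G1/S) and -0.06 (G2/M) against 0.01 for all genes. The G2/M median of replicate 2 is -0.08 against -0.01.

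The G1 cyclins and kinases, which start the passage to S phase, had the median nearest to 0 of the roles, 0.02 over 6 tested genes, and none reached the unadjusted p. CCNE1, the cyclin E that activates CDK2, had the lowest p of them, with ratios of -0.10, 1.11 and 0.09 on the forward arrays of replicates 1, 2 and 3, and -0.08, 0.13 and 0.53 on the swapped ones. It was higher on 4 arrays, and 1 value, that of replicate 2, stood far above the others. The mean was 0.28 ± 0.35 (limma, adjusted p = 0.662). CCND2, the D cyclin that FSH is known to induce in rodent granulosa cells, had ratios of -0.26, 0.26 and -0.66 (forward) and 0.18, 0.15 and -0.25 (swapped). These spanned 0 in both orientations, and the mean was -0.10 ± 0.33 (limma, adjusted p = 0.937). Its sign depended on the setting, since it was 0.08 without replicate 3 and 0.02 from trimmed mean intensities. CCNE2 and CDK4, a second cyclin E and the kinase of the D cyclins, lay at -0.28 ± 0.68 and 0.07 ± 0.48, with SDs larger than their means.

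Among the 6 licensing genes, which prepare origins, 5 lay below 0 and the median was -0.20. GMNN, geminin, binds CDT1 and so blocks relicensing of origins after S phase has begun. Its ratios were -0.48, -0.84 and -0.12 on the forward arrays of replicates 1, 2 and 3, and -0.85, -1.34 and -0.55 on the swapped ones. All 6 were below 0, with the weakest on the forward array of replicate 3. Its replicate means were -0.66, -1.09 and -0.34, a mean of -0.70 ± 0.38 and a level 1.62-fold lower with cetrorelix. The normalised log2 intensity was 11.49 ± 0.52 in control cells and 10.80 ± 0.33 with cetrorelix, and the replicate levels of both groups overlapped because control replicate 3 lay at 10.90. In limma the adjusted p was 0.176, 0.0808 with a replicate block, and 0.0321 with the block and a dye term. The block fits used 6 arrays, with a consensus correlation within replicates of -0.026, or 0.253 with the dye term. They thus counted the 2 arrays of a replicate largely as separate observations, here and for the other genes. From trimmed mean intensities the mean was -0.56 and no longer reached the unadjusted p.

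CDT1, the partner of geminin that loads the MCM ring, had opposite signs in the 2 orientations. Its ratios were -1.38, -0.78 and -0.08 (forward) and 0.20, 1.10 and 1.14 (swapped), so it was lower on every array of one orientation and higher on every array of the other. Its mean of 0.03 ± 0.57 (limma, adjusted p = 0.984) averages these opposite readings, and the probe was above background on 4 arrays in each group. The origin recognition genes ORC2, ORC3 and ORC4 lay at -0.28 ± 0.31, -0.11 ± 0.11 and -0.31 ± 0.33. The loader CDC6 lay at -0.04 ± 0.11, and none of these genes reached an unadjusted p under 0.05. The ORC2 probe was above background on 2 cetrorelix and 6 control arrays. It thus passed the filter through the control group alone, and its ratio rests on dim spots. Dimmer tested ORC4 probes lay at 0.27 ± 0.18 and 0.02 ± 0.17.

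The MCM genes encode the 6 subunits of 1 helicase ring, and their ratios divided. MCM2, MCM3, MCM4 and MCM6 lay at -0.34 ± 0.30, -0.43 ± 0.38, -0.20 ± 0.37 and -0.21 ± 0.19, whereas MCM5 lay at 0.67 ± 0.82 and MCM7 at 0.52 ± 0.32. Dimmer MCM2 probes lay at 0.01 ± 0.32 and -0.03 ± 0.06. MCM3 had ratios of -0.78, -0.75 and 0.20 (forward) and -0.46, -0.60 and -0.18 (swapped). Of these 5 were below 0, and the exception was in replicate 3. For MCM3 limma gave an adjusted p of 0.401. MCM7 had ratios of 0.69, 0.52 and -0.29 (forward) and 0.49, 1.09 and 0.63 (swapped). Again 5 of 6 had 1 sign, here above 0, and replicate 3 held the exception. For MCM7 limma gave an adjusted p of 0.258. MCM5 had ratios of 0.19, 1.44 and -0.11 (forward) and 0.14, 1.78 and 0.57 (swapped). Its mean rested on replicate 2, at 1.61, while replicates 1 and 3 lay at 0.16 and 0.23, and without replicate 2 the mean was 0.20 and did not reach the unadjusted p. MCM7 did not reach it without replicate 1 or without replicate 2 either. For MCM5 with all replicates the adjusted p was 0.389 (limma). The replicate levels of MCM3, MCM5 and MCM7 overlapped between groups. The log2 level of MCM5 was 8.48 ± 0.33 in control cells and 9.15 ± 0.64 with cetrorelix, and that of MCM7 was 8.62 ± 0.15 in control cells and 9.15 ± 0.47 with cetrorelix. The remaining helicase gene on the array, GINS1 of the GINS complex, lay at 0.02 ± 0.14.

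**Figure D3:**
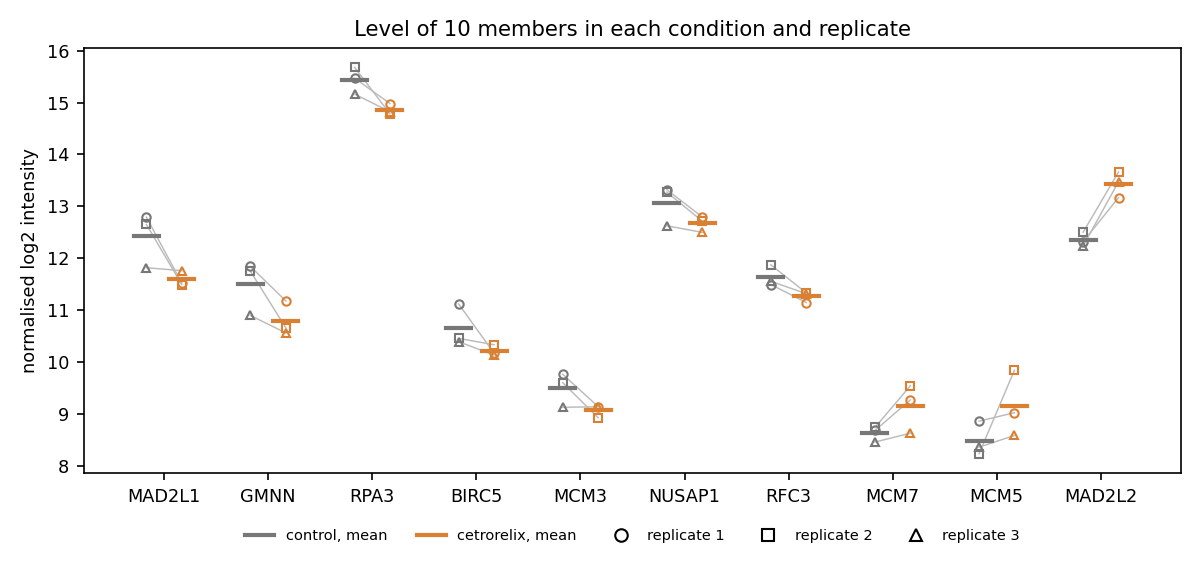
Normalised log2 intensity of the 10 members with an unadjusted p under 0.05, with 1 point per replicate and group, a line joining the control (grey) and the cetrorelix (orange) value of a replicate and bars at the means. The control levels of RPA3, RFC3, MAD2L1 and BIRC5 lie above all of their cetrorelix levels, and those of MAD2L2 lie below. The genes shown were picked by p on the same values, and the share of all tested genes without overlap was not counted. Of the members not shown, MCM6, RRM2 and TOP2A also had no overlap, with control above cetrorelix. The forward and swapped means had opposite signs for MCM6 (-0.53 and 0.10) and RRM2 (-0.85 and 0.24), and these levels average both orientations.

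PCNA, its clamp loader RFC and the single-strand binding protein RPA form the next role, where 6 of 8 genes lay below 0 with a median of -0.30. RPA3, the smallest RPA subunit, had ratios of -0.02, -0.42 and -0.26 on the forward arrays of replicates 1, 2 and 3, and -0.96, -1.36 and -0.42 on the swapped ones. All 6 were below 0, and the cetrorelix levels of the replicates (14.79 to 14.98) did not overlap the control levels (15.16 to 15.68). How many of all tested genes lack such overlap was not counted, here and for the genes below. The mean of RPA3 was -0.57 ± 0.29 (limma, adjusted p = 0.214). It was -0.23 on the forward and -0.92 on the swapped arrays (adjusted p of the dye term = 0.132), and the forward arrays alone did not reach the unadjusted p. The other RPA subunits, RPA1 and RPA2, lay at -0.42 ± 0.56 and -0.29 ± 0.29.

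RFC3, a subunit of the clamp loader, had ratios of -0.22, -0.94 and -0.41 (forward) and -0.47, -0.14 and -0.06 (swapped). It too was below 0 on every array, its replicate levels did not overlap between the groups, and the mean was -0.38 ± 0.15 (limma, adjusted p = 0.374). RFC5, RFC4 and RFC2 of the same complex lay at -0.24 ± 0.13, 0.05 ± 0.38 and 0.20 ± 0.23. Dimmer RFC5 probes lay at 0.15 ± 0.20, -0.03 ± 0.34 and -0.29 ± 0.28, and a dimmer RFC2 probe at -0.04 ± 0.14. PCNA, the clamp itself, had ratios of -0.40, 0.05 and 0.27 (forward) and -0.84, -0.64 and -0.30 (swapped). It was below 0 on all swapped arrays and on 1 forward array, and the mean was -0.31 ± 0.30 (limma, adjusted p = 0.573). All 4 PCNA probes had negative means, from -0.55 to -0.06. The dimmer ones lay at -0.55 ± 0.85, -0.27 ± 0.84 and -0.06 ± 0.18, with SDs larger than their means.

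Deoxynucleotide supply gave a median of -0.31 over 3 genes. TYMS, thymidylate synthase, had ratios of 0.08, -0.33 and -0.41 (forward) and -0.30, -0.80 and -0.25 (swapped). It was lower on 5 arrays, with a mean of -0.33 ± 0.23 (limma, adjusted p = 0.482), or -0.15 as the mean of its 3 probes. RRM2, the regulated subunit of ribonucleotide reductase, lay at -0.31 ± 0.24 and its partner RRM1 at 0.13 ± 0.31. The 3 RRM2 values on forward arrays were -1.06, -0.74 and -0.75, and those on swapped arrays were -0.12, 0.43 and 0.40. RRM2 was thus lower on every forward array and on 1 swapped array. Its other tested probes lay at -0.22 ± 0.49, 0.05 ± 0.36 and 0.11 ± 0.04.

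All 4 mitotic cyclin and CDK1 genes lay below 0, with a median of -0.25, and none reached the unadjusted p. CCNA2, cyclin A, which acts in S phase and at mitotic entry, had ratios of -1.28, -0.12 and -0.13 on the forward arrays of replicates 1, 2 and 3, and -0.62, -0.13 and -0.26 on the swapped ones. Every array was below 0, but replicate 1 carried the size of the mean, -0.42 ± 0.46 (limma, adjusted p = 0.463). A dimmer CCNA2 probe lay at 0.05 ± 0.20, and the mean of both probes was -0.19. CDK1, the kinase of mitotic entry, lay at -0.35 ± 0.35, and the B cyclins CCNB1 and CCNB2 at -0.15 ± 0.41 and -0.14 ± 0.24.

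The spindle checkpoint genes MAD2L1 and MAD2L2 have similar names and lay on opposite sides of 0 in the averaged ratios, and the sign of MAD2L2 differed between the orientations. MAD2L1, the MAD2 protein that binds CDC20 at unattached kinetochores, had ratios of -1.18, -0.60 and 0.13 on the forward arrays of replicates 1, 2 and 3, and -1.36, -1.72 and -0.25 on the swapped ones. It was lower on 5 arrays, and replicate 3 was near 0 at -0.06. The mean was -0.83 ± 0.67 (limma, adjusted p = 0.214), or -0.61 without replicate 1 (not at the unadjusted p) and -1.22 without replicate 3. The control level was 12.42 ± 0.53 and the cetrorelix level 11.59 ± 0.15, without overlap. A dimmer probe of the gene lay at -1.26, -1.59 and -0.78 in replicates 1, 2 and 3, a mean of -1.21 ± 0.41. That probe had an adjusted p of 0.0835 in limma, and 0.0234 with the replicate block, where the brighter probe had 0.132. With the dye term as well, the adjusted p values were 0.00232 and 0.042. Both MAD2L1 probes lay below 0 in all 3 replicates. Neither passed the adjusted threshold in the test of 3 replicates. The passes given here came from block models, which counted the 2 arrays of a replicate largely as separate observations.

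MAD2L2, also called REV7, is a subunit of the translesion polymerase zeta and an inhibitor of the anaphase-promoting complex. Its ratios were -1.01, -0.63 and -0.99 on the forward arrays of replicates 1, 2 and 3, and 2.71, 2.95 and 3.47 on the swapped ones. They had opposite signs in the orientations, with means of -0.88 and 3.05, and these differed at an adjusted dye-term p of 8.81e-09 in limma. The averages of both orientations, in which a dye effect of equal size cancels, were 0.85, 1.16 and 1.24 in replicates 1, 2 and 3, all above 0, and gave a mean of 1.08 ± 0.21 with an adjusted p of 0.0835 in limma. With the replicate block alone, which leaves the orientation gap in the residual, the adjusted p was 0.556, and with the block and a dye term it was 0.00269. A second probe behaved alike, at -1.05 and 2.95 in the orientations, and the other 5 probes had means of -0.27 to 0.23. Of these, the probe above background on all 6 arrays also had opposite signs, with orientation means of -0.57 and 0.84. The rest were dim, above background on 1 to 4 arrays of a group. As the mean of its 7 probes, the dim ones included, MAD2L2 lay at 0.29.

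**Figure D4:**
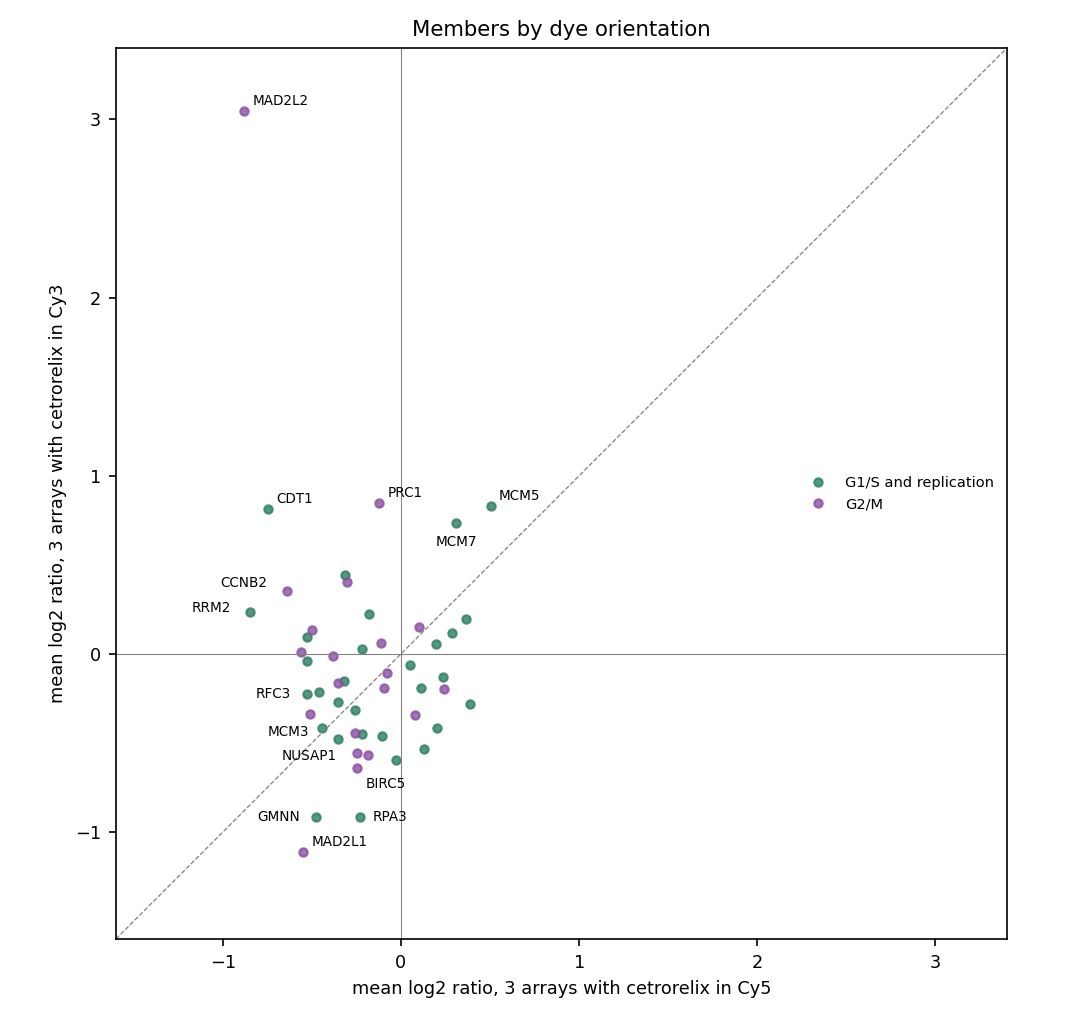
Mean log2 ratio (cetrorelix over control) of each tested member on the 3 forward arrays (horizontal axis) and on the 3 swapped arrays (vertical axis). GMNN and MAD2L1 lie below 0 on both axes, MAD2L2 lies at -0.88 and 3.05, and CDT1 and CCNB2 also have opposite signs.

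The other checkpoint genes lay closer to 0. The checkpoint kinases BUB1 and BUB1B were at -0.20 ± 0.61 and -0.38 ± 0.43, their partner BUB3 at 0.02 ± 0.39, and the anaphase-promoting complex genes CDC20 and UBE2C at 0.05 ± 0.25 and -0.18 ± 0.43. Of the mitotic kinases, AURKA was at -0.28 ± 0.10, AURKB at 0.13 ± 0.67 and PLK1 at -0.03 ± 0.19. The value of AURKA came from the forward arrays, with a mean of -0.56, against 0.01 on the swapped ones. BIRC5, survivin, is the passenger protein that joins AURKB at centromeres. Its ratios were -0.66, -0.26 and 0.18 (forward) and -1.24, 0.02 and -0.69 (swapped). They were lower on 4 arrays, replicate 1 was the lowest at -0.95 (without it the mean was -0.19), and the mean was -0.44 ± 0.44 (limma, adjusted p = 0.421). A second BIRC5 probe lay on the other side of 0, at 0.56 ± 0.59 (limma, adjusted p = 0.368), so the probes of BIRC5 disagreed and their mean was 0.06.

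**Figure D5:**
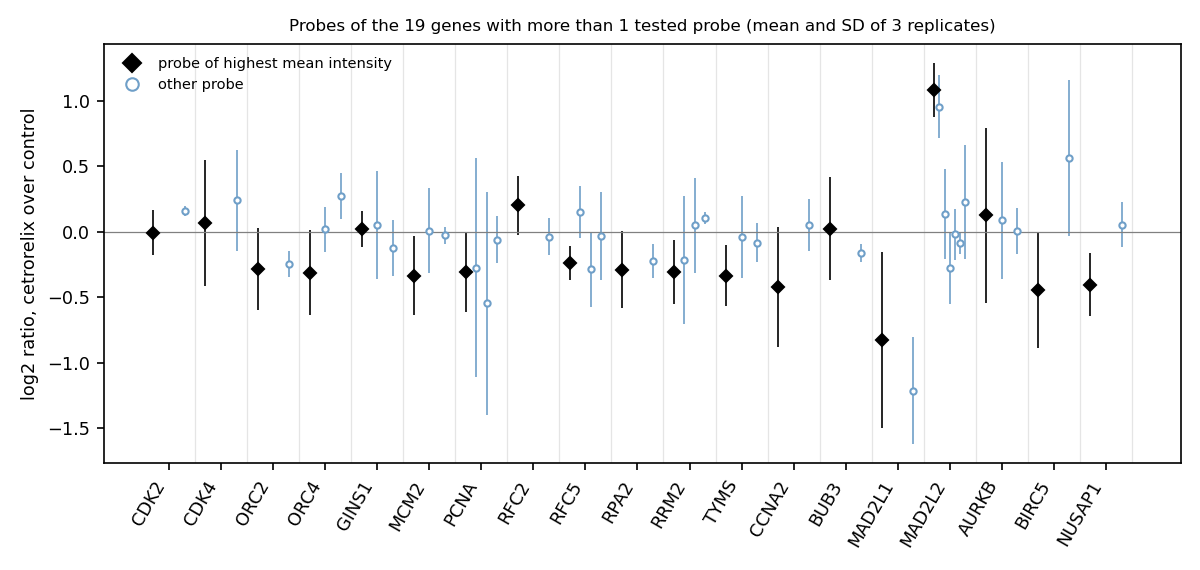
Mean log2 ratio (cetrorelix over control) with SD over 3 replicates for every tested probe of the 19 members that have several tested probes, with the brightest probe marked. Both MAD2L1 probes and all 4 PCNA probes lie below 0, the BIRC5 probes lie on opposite sides of 0, and MAD2L2 has 2 probes near 1 and 5 near 0.

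The genes of chromosome and spindle structure had a median of -0.13. NUSAP1, which bundles spindle microtubules, had ratios of -0.21, -0.31 and -0.22 on the forward arrays of replicates 1, 2 and 3, and -0.84, -0.81 and -0.03 on the swapped ones. All were below 0, and the mean was -0.40 ± 0.24 (limma, adjusted p = 0.369). A dimmer NUSAP1 probe lay at 0.05 ± 0.17, and the mean of both probes was -0.17, which did not reach the unadjusted p. TOP2A, the topoisomerase that untangles sister chromatids, had ratios of -0.86, -0.14 and -0.06 (forward) and -0.05, -0.37 and -0.06 (swapped). The forward array of replicate 1 was the lowest, the other 5 lay between -0.37 and -0.05, and the mean was -0.26 ± 0.20 (limma, adjusted p = 0.639). MKI67, the Ki-67 protein used as a proliferation marker, had ratios of -0.18, -0.04 and -0.01 (forward) and -0.01, -0.02 and -0.28 (swapped). Though below 0 on every array, it lay close to it, with a mean of -0.09 ± 0.06 (limma, adjusted p = 0.922). MKI67 and TOP2A were above background on 4 cetrorelix and 6 control arrays, so their ratios rest on dim spots. TPX2 and PRC1, a spindle assembly factor and a midzone bundler, lay at -0.13 ± 0.14 and 0.36 ± 0.44.

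Many members differed between the orientations. At an unadjusted p under 0.05 the dye term was met by 15 of 50 members (30.0%), against 21.8% of all tested genes and 30.8% of those above background on all arrays. On all arrays of each orientation 3 members (6.00%), CDT1, CCNB2 and MAD2L2, had opposite signs, against 8.92% of all genes. The medians were -0.22 on forward and -0.17 on swapped arrays for the G1/S genes, and -0.25 and -0.13 for the G2/M genes, so both orientations had medians below 0. Of the 7 lower members, GMNN, RFC3 and MAD2L1 also reached an unadjusted p under 0.05 on the forward arrays alone, and GMNN, MCM3, RPA3, MAD2L1, BIRC5 and NUSAP1 on the swapped arrays alone (limma).

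Other genes of the pathway were read from a longer list of replication, G1/S control and mitosis genes, of which 116 of 141 were tested. None passed the adjusted threshold. At an unadjusted p under 0.05, 25 (21.6%) were lower and 5 (4.31%) higher, with a median of -0.13 and 78 below 0, beside 8.55% and 7.18% of all genes. Among the 83 above background on all arrays 24 (28.9%) were lower and 5 (6.02%) higher, where all such genes gave 15.0% and 13.6%. The division was 6 lower and 1 higher of 35 for other replication genes, 6 and 0 of 22 for G1/S control genes, and 13 and 4 of 59 for other mitosis genes. The lists were drawn with earlier results of these data known, and their genes share arrays and cells, so no test of the lists was made.

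The 5 lower genes with the smallest p were CKAP2, CDKN2C, CDC16, STAG2 and NUF2. CKAP2, a spindle protein, lay at -0.66 ± 0.28 (limma, adjusted p = 0.17). CDKN2C, the p18 inhibitor of the cyclin D kinases, lay at -0.66 ± 0.31 (limma, adjusted p = 0.176) and was lower on 6 of 6 arrays. CDC16, a subunit of the anaphase-promoting complex, lay at -0.57 ± 0.11 and was likewise lower on every array. STAG2 of cohesin and NUF2 of the outer kinetochore lay at -0.81 ± 0.55 and -0.82 ± 0.59, lower on 6 of 6 arrays, with adjusted p values of 0.182 and 0.189 (limma). With a replicate block these were 0.0926 and 0.0919, and with the block and a dye term 0.0338 and 0.0286. The 5 thus held genes of the spindle, the anaphase-promoting complex, cohesin and the kinetochore, and 1 inhibitor of the cycle.

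On the higher side were CENPF, LIG1, ANAPC1, CENPM and NCAPH. CENPF, a kinetochore protein of G2 and mitosis, lay at 0.72 ± 0.24 (limma, adjusted p = 0.13), higher on 5 arrays, and its adjusted p was 0.107 with the block and 0.0288 with the block and the dye term. LIG1, the ligase of lagging strands, lay at 0.67 ± 0.57 and was higher on 6 of 6 arrays, though replicate 2 alone was at 1.31. ANAPC1, CENPM and NCAPH lay at 0.37 ± 0.15, 0.63 ± 0.76 and 0.38 ± 0.32. The inhibitors CDKN1A (p21) and CDKN1B (p27), which halt the cycle in G1, lay at 0.08 ± 0.07 and -0.26 ± 0.11, and the restriction point genes RB1 and E2F1 at -0.10 ± 0.04 and 0.14 ± 0.43, none at an unadjusted p under 0.05. FOXM1, the activator of G2/M genes, was above background on 1 cetrorelix and 0 control arrays and was not tested.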

How the data were processed

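Members and lists were chosen with earlier results of these data known. The named genes were the members with an unadjusted p under 0.05, the member of lowest p in each role, and MKI67, PCNA, TOP2A and CCND2, with up to 5 higher and 5 lower other pathway genes and CDKN1A, CDKN1B, RB1, E2F1 and FOXM1. Per the file headers, the deposited scanner tables hold raw spot intensity and local background for the Cy5 and Cy3 lasers, and a flag of the image analysis. The authors also deposited normalized log2 ratios, which were used as an alternative. These correlated at r = 0.842 to 0.996 with the ratios computed here and ran as cetrorelix over control, with column medians of -0.03 to 0.01. No source used here gives their centring method, and the submitters' processing notes name limma alone. Per the labels' protocols, RNA was amplified and then labelled chemically.

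Background was corrected with normexp (offset 50) and ratios were normalized within arrays by loess, with control spots at weight 0 (limma 3.58.1, R 4.3.3). A channel was above background over the 95th percentile of 153 negative controls. Probes above it on at least 3 arrays of a group, with a value on every array, were kept, and 200 were left out for a marked spot. Ratios were turned to cetrorelix over control, dye-swapped arrays averaged, and 3 replicates tested against 0 with moderated variances and Benjamini-Hochberg adjustment, and 4 probes passed. The test was first run on simulated data. Symbols came from the platform annotation, with ORC2, ORC3, ORC4 and a MAD2L1 probe matched through older names in the RefSeq table of the current cattle assembly. Same-numbered arrays deviated together from their orientation means (r = 0.229, 0.402 and 0.422, other pairs -0.345 to -0.047). Deviations from a mean of 3 arrays sum to 0, so the negative values of other pairs follow in part from the centring. Shared numbers were taken to pair the arrays, which these correlations alone cannot settle. The block was a random effect, with a consensus correlation of -0.026 and of 0.253 with a dye term. At these values the arrays of a replicate counted largely as separate observations. The number of arrays limits the precision. No sequences were used.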

Additional observations from a re-analysis of the deposited data

Results flagged for a closer look

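The ratios of 5 members differed between the dye orientations at an adjusted p under 0.05 (limma with a dye term and the replicate number as a block). All 5 were lower on the forward arrays. The difference, forward minus swapped arrays in log2 units, was -3.92 for MAD2L2 (adjusted p = 8.81e-09), -1.56 for CDT1 (0.00335), -1.08 for RRM2 (0.0105), -0.99 for CCNB2 (0.0188) and -0.97 for PRC1 (0.0375). MAD2L2, CDT1 and CCNB2 had opposite signs on all arrays of each orientation. Dye and slide cannot be told apart here, and the orientation means of all 5 genes lay on opposite sides of 0.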

How the results depend on the processing

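The medians of the G1/S and the G2/M genes stayed below 0 under all alternatives run, between -0.25 and -0.10 and between -0.28 and -0.09. Counts moved more. Lower members at an unadjusted p under 0.05 (7) numbered 17 after median centring, 3 among probes above background on all arrays, 12 with a replicate block, 11 with the block and a dye term, 3 to 12 when a replicate was left out, 11 and 12 on the forward and the swapped arrays alone, 11 from the authors' log2 values and 11 from trimmed mean intensities, an alternative chosen after seeing the data. Higher members (3) numbered 1 to 3 with a replicate left out, and 0 and 6 on the forward and the swapped arrays alone. Probes passing the adjusted threshold (4) numbered 231 with offset 16, 7 without the filter, 15 with the strict filter, 234 with the replicate block, 768 with the block and the dye term, 0 to 1240 with a replicate left out (0 without replicate 1, 382 without replicate 2), 516 and 1136 on the forward and the swapped arrays, 9 from the authors' values and 0 from trimmed means, where 4 had passed. Members, by their brightest probe, passed it in some settings: MAD2L2 with offset 16, GMNN, MAD2L1 and MAD2L2 with the block and the dye term and without replicate 3, MAD2L2 without replicate 2 and, lower, on the forward arrays, and GMNN, RPA3 and MAD2L2 on the swapped arrays. Signs turned for CCND2 (0.084 without replicate 3, 0.030 on the swapped arrays, 0.021 from trimmed means), MAD2L2 (-0.88 on the forward arrays) and BIRC5 (0.060 as the mean of its probes). The causes were not tested. Over single named members, 201 values kept sign and side of the threshold, 18 crossed to a lower p and 29 to a higher one. Dim spots limit ORC2, MKI67, TOP2A, CDT1 and PLK1.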
